A study of Mus musculus with 12 samples.

Results

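The transcripts of 8 interferon regulatory factors (IRFs), Irf1, Irf2, Irf3, Irf4, Irf5, Irf7, Irf8 and Irf9, were examined in bone marrow-derived macrophages (BMDMs) of wild-type C57BL/6 mice. They were chosen by name, as the rows of the count table that carry these symbols, 8 of 24421 symbols, and all 8 passed the filter on low counts, as did 11468 genes in all.

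Total RNA was sequenced from 12 libraries in 4 groups of 3. BMDMs were grown for 5 days in M-CSF and then exposed for 4 h to ovalbumin (Ova) or to ovalbumin bound by IgG in insoluble immune complexes (IC), which cross-link Fc gamma receptors, in the presence of either the solvent DMSO or 5.0 µM I-BET151 (iBET), which blocks the acetyl-lysine pockets of the bromodomain and extra-terminal (BET) proteins. The groups are called by solvent or drug and stimulus (DMSO Ova, for example), and every group holds 1 library from each of mice A, B and C. The order of drug and stimulus is uncertain, since the labels give them together and the study's methods give the drug first, and the labels name 5% DMSO as the solvent control.

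IRFs bind DNA through a shared amino-terminal domain that recognises GAAA repeats, found in the interferon-stimulated response element (ISRE) of interferon-inducible genes. Irf3, Irf5 and Irf7 lie downstream of pattern recognition receptors and drive interferon and cytokine genes once phosphorylated; Irf9 is the DNA-binding subunit of ISGF3, which also holds Stat2; Irf1 is an interferon-inducible activator and Irf2 a factor that competes for the same elements. Irf4 and Irf8 bind weakly alone and act with partners such as PU.1 (Spi1) and AP-1 proteins, Irf8 being a lineage factor of monocytes and macrophages and Irf4 being linked to alternative macrophage activation, dendritic cells and plasma cells.

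Totals ranged from 7.55 M to 17.4 M counts per library. The ribosomal precursor Rn45s took between 1.41% and 7.83% of counts in 11 libraries and 77.4% in the mouse A library of DMSO Ova, which kept 1.77 M counts on other genes against 7.25 M to 16.9 M elsewhere, so the values of that library rest on the fewest counts and are given apart where they matter. The macrophage label was checked against 8 markers, all of which were tested, and their summed level was between 6215 and 8786 CPM (counts scaled to a common library size) in each library. Markers of cells that use Irf4 and Irf8 most were scarce. Of the 4 B cell markers only Pax5 was at 0 in every library, and the sum of the 4, mostly Cd79b, was 0.226 to 1.33 CPM. The 6 conventional dendritic cell markers summed to between 0.307 and 1.65 CPM. Of the 5 plasmacytoid dendritic cell markers Ly6d and Klk1 were at 0, and Siglech did not exceed 0.307 CPM. Tcf4 made up nearly all of the sum of these 5. That sum was 79.6 to 90.0 CPM in DMSO Ova, 34.6 to 42.2 in iBET Ova, 59.8 to 69.8 in DMSO IC and 31.3 to 37.1 in iBET IC. The part of Tcf4-expressing cells in the results was not tested, and in bulk RNA fewer cells of a type and less RNA per cell cannot be told apart.

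The promoters of Irf1, Irf2, Irf4 and Irf8 are shown because these genes were called with iBET in at least 1 stimulation and their 250 bases before the start site hold a searched motif (RefSeq, GRCm38.p6). Motifs were searched on both strands as GAAANNGAAA (ISRE-type), GGAANNGAAA (ETS-IRF composite), TTCNNNGAA (GAS, the gamma interferon activation site) and TATAAA. Matches are in capitals, and in Irf2 the first run of capitals holds an ETS-IRF composite from -247 to -238 that overlaps an ISRE-type match from -241 to -232.
Irf1 (chr11:53769764-53770013, plus strand): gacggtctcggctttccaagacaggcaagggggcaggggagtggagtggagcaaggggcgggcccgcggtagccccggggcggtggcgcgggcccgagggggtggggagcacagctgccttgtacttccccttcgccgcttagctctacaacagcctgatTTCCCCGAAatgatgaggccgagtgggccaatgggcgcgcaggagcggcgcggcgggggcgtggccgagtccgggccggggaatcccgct
Irf2 (chr8:46739495-46739744, plus strand): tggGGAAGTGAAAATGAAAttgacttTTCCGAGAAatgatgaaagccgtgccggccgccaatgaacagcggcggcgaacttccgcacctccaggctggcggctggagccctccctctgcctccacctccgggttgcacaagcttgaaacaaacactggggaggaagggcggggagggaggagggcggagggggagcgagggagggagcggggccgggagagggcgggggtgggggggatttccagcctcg
Irf4 (chr13:30748983-30749232, plus strand): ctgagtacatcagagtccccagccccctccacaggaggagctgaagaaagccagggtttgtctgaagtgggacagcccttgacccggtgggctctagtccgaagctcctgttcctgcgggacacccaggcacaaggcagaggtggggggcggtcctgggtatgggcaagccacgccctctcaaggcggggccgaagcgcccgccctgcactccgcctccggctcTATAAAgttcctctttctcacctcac
Irf8 (chr8:120736108-120736357, plus strand): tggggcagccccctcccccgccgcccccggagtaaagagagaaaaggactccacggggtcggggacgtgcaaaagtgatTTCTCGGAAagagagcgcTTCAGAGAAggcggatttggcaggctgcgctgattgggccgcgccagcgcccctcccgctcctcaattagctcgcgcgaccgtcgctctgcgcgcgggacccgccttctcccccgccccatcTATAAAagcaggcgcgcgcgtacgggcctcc

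Irf2 was the only member among the 8 with an ISRE-type or composite match, and its second run of capitals is a GAS match from -224 to -216. Irf1 carries a GAS match from -90 to -82, and Irf8 carries 2 of them, from -171 to -163 and from -153 to -145. Irf4, Irf7 and Irf8 have TATAAA, starting at -26, -29 and -31. No searched motif was found for Irf3, Irf5 or Irf9, nor at the second start sites listed for Irf1, Irf8 and Irf9. Among all 32851 promoters of the same length, an ISRE-type match was present in 2.98%, a composite in 2.30%, GAS in 7.02% and TATAAA in 12.4%. These matches are letters only, and binding was not measured here.

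Level per length, the TMM-scaled CPM divided by the kilobases of all annotated exons (GENCODE vM21), put Irf7 first and Irf5 second in every group. In DMSO Ova the mean levels per kb were 117 for Irf7, 76.4 for Irf5, 18.5 for Irf2, 15.1 for Irf9, 11.8 for Irf8, 7.35 for Irf1, 3.56 for Irf3 and 0.266 for Irf4. Irf2 and Irf9 overlapped between libraries there, and without the mouse A library of DMSO Ova Irf2 stood at 14.1 per kb, below Irf9. Thus transcripts of the interferon-inducing factors Irf7 and Irf5 made up most of the family, and Irf4 was at the bottom.

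With iBET the top and bottom of this order stayed and its middle was rearranged. Irf2 moved from position 3 to 6 in Ova, at 7.40 per kb, and from 4 to 6 in IC, from 13.8 to 5.34 per kb. Irf8 took position 3, at 15.7 per kb in iBET Ova and 14.6 in iBET IC. Irf9 stood at 10.3 and 10.4 per kb in those groups, overlapping with Irf1 in iBET Ova, where Irf1 and Irf2 also overlapped, while in DMSO IC the overlapping neighbours were Irf9 with Irf2 and Irf2 with Irf8. No neighbours overlapped in iBET IC. The middle positions depend on the length used: with the longest annotated transcript in place of all exons, Irf1 took position 4 in both iBET groups and Irf8 position 4 in both DMSO groups.

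**Figure D1:**
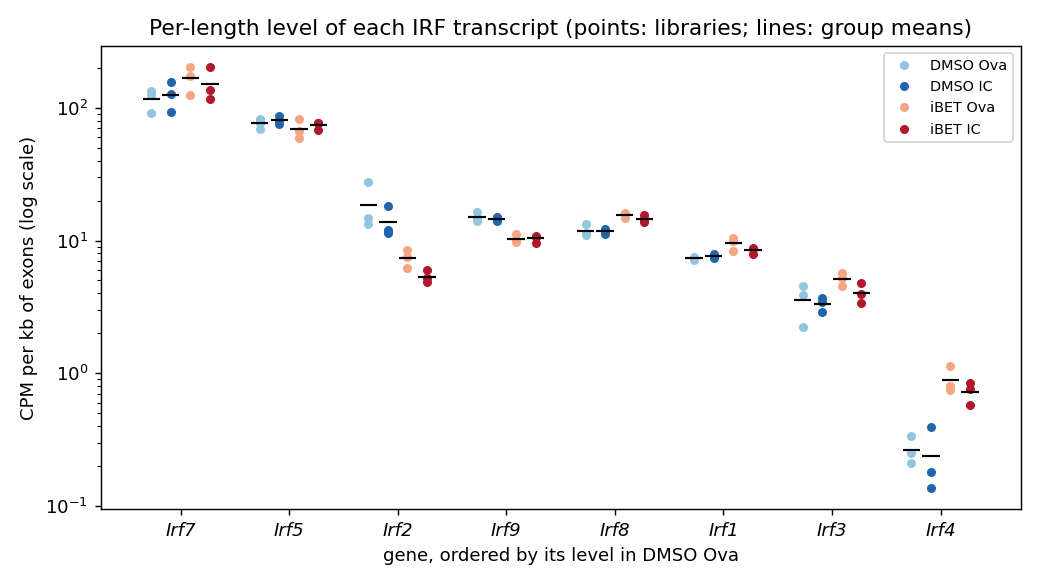
Level of each IRF transcript in CPM per kb of exons, on a log axis, in the 12 libraries (points) and as group means (lines), with genes in their DMSO Ova order. Irf7 and Irf5 stand above the other members in every group, Irf4 is lowest at 0.237 to 0.894 per kb, and Irf2 drops below Irf8, Irf9 and Irf1 in the iBET groups.

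As a share of the summed level per kb, Irf7 made up 46.5% ± 3.31 (SD, n = 3) in DMSO Ova, 58.1% ± 3.96 in iBET Ova, 48.3% ± 5.94 in DMSO IC and 55.6% ± 6.10 in iBET IC. Irf2 made up 7.30% ± 2.28, 2.69% ± 0.870, 5.33% ± 0.848 and 2.00% ± 0.241 in the same order of groups. The summed level itself was 250 ± 33.1, 286 ± 49.8, 257 ± 34.3 and 270 ± 49.2 CPM per kb, and its range overlapped between all groups.

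Setting iBET against DMSO in Ova asked which IRF transcripts differ under the drug without receptor cross-linking. Irf4, Irf8 and Irf1 rose, Irf2 and Irf9 fell, and Irf3, Irf5 and Irf7 were not called. That is 5 of 8 members called at an adjusted p under 0.05 (edgeR quasi-likelihood test, Benjamini-Hochberg over all genes tested), against 31.3% of all genes tested. In IC the count was 4 of 8, Irf4, Irf8, Irf2 and Irf9 in the same directions, against 34.8% of all genes. In each stimulation the iBET and DMSO libraries of 5 members did not overlap, against 45.1% of all genes in Ova and 48.6% in IC. The directions below were the same in every alternative setting and every fit without 1 library or 1 mouse. The 2 comparisons share no libraries, but the same mice gave both.

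**Figure D2:**
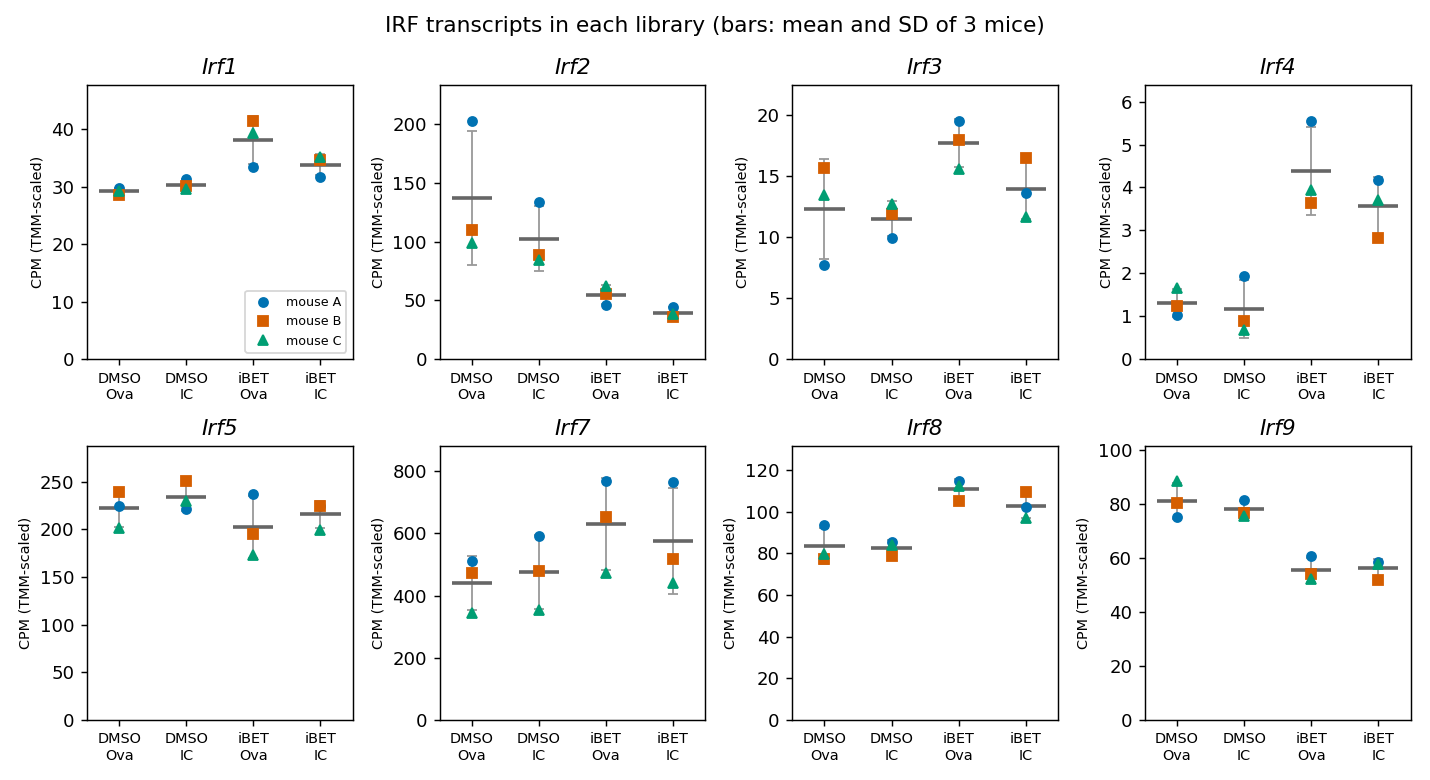
TMM-scaled CPM of the 8 members in each library, with each mouse marked by colour and shape and each group's mean and SD as grey bars; every axis starts at 0 and differs between panels. Irf2 and Irf9 are lower, and Irf4 and Irf8 higher, in all 6 iBET libraries than in all 6 DMSO libraries, and Irf7 runs in the order mouse A, B, C in every group.

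Irf2, the factor that competes with Irf1 for shared elements, showed the largest fall (chr8:46739732-46847458, GRCm38). It stood at 203, 110 and 98.8 CPM in the DMSO Ova libraries of mice A, B and C, and at 46.3, 55.5 and 62.5 CPM in iBET Ova. In IC it went from 134, 88.8 and 84.1 CPM with DMSO to 44.5, 35.8 and 38.4 CPM with iBET. The DMSO libraries of mouse A were the highest of each stimulation, and no iBET library reached the lowest DMSO library. The log2 fold change was -1.30 in Ova (adjusted p 0.00385, SE 0.27) and -1.37 in IC (adjusted p 0.0024, SE 0.27), or 2.46-fold and 2.58-fold lower, in 3 of 3 mice each. Without the mouse A library of DMSO Ova the change in Ova was -0.98 (adjusted p 0.00193), and leaving out mouse B ended the Ova call (adjusted p 0.054).

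Irf4 showed the largest rise (chr13:30749226-30766976), from a level near the detection limit. Its counts were 2, 16 and 20 in DMSO Ova and 72, 33 and 35 in iBET Ova, or 1.03, 1.23 and 1.66 CPM against 5.56, 3.64 and 3.95 CPM. In IC they were 23, 8 and 7 with DMSO and 78, 29 and 31 with iBET, or 1.94, 0.880 and 0.667 CPM against 4.16, 2.81 and 3.72 CPM. Every iBET library was above every DMSO library, although the lowest value, in mouse A, rests on 2 counts. The log2 fold change was 1.66 in Ova (adjusted p 0.00494, SE 0.37) and 1.59 in IC (adjusted p 0.00471, SE 0.36), or 3.16-fold and 3.00-fold higher, in 3 of 3 mice each. The calls held in all 12 fits without 1 library, and were lost without mouse B in both stimulations (adjusted p 0.0816 and 0.0626) and without mouse C in IC (adjusted p 0.0654).

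Irf8, the close relative of Irf4 and a lineage factor of these cells, rose by less (chr8:120736358-120756694). It was at 93.5, 77.4 and 79.8 CPM in DMSO Ova and 115, 105 and 112 CPM in iBET Ova. In IC it was at 85.6, 78.8 and 83.9 CPM with DMSO and 102, 109 and 97.1 CPM with iBET. The groups did not overlap in either stimulation, and the log2 fold change was 0.42 in Ova (adjusted p 0.00606, SE 0.096) and 0.31 in IC (adjusted p 0.0217, SE 0.095), in 3 of 3 mice each. The IC call ended without the mouse B library of iBET IC (adjusted p 0.0846), the mouse B library of DMSO IC (0.0709) or the mouse A library of iBET IC (0.0554). It was also lost, as was the call in Ova, without mouse B (0.105 in Ova and 0.271 in IC) and without mouse C (0.111 and 0.102).

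Irf1, the interferon-inducible activator, was called in Ova only (chr11:53770014-53778374). It was at 29.8, 28.6 and 29.3 CPM in DMSO Ova and at 33.4, 41.5 and 39.3 CPM in iBET Ova. With IC it was at 31.4, 30.0 and 29.5 CPM in DMSO and 31.7, 34.6 and 35.1 CPM in iBET. The groups did not overlap in either stimulation, but in IC the gap between the nearest libraries was small. The log2 fold change was 0.38 in Ova (adjusted p 0.0165, SE 0.11) and 0.15 in IC (adjusted p 0.272, SE 0.10), in 3 of 3 mice each, and the interaction did not tell them apart (-0.23, SE 0.15, unadjusted p 0.151, adjusted p 1.00). The call in Ova was lost without the mouse B library of iBET Ova (adjusted p 0.0746), without the DMSO Ova library of that mouse (0.0577), without mouse B (0.261) or mouse C (0.166), and with the compared groups fitted alone (0.0815). Of the exon bases of Irf1, 3.40% lie opposite Gm17334, a gene for which the count table has no row under that symbol.

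Irf9, the DNA-binding subunit of ISGF3, fell (chr14:55603571-55610030). It was at 75.0, 80.1 and 88.2 CPM in DMSO Ova and 60.6, 53.9 and 52.2 CPM in iBET Ova. In IC it went from 81.4, 76.6 and 75.6 CPM to 58.4, 51.8 and 57.8 CPM. All 6 iBET libraries lay below all 6 DMSO libraries. The log2 fold change was -0.55 in Ova (adjusted p 0.00119, SE 0.099) and -0.47 in IC (adjusted p 0.00251, SE 0.098), in 3 of 3 mice each. The calls were lost without mouse B (adjusted p 0.0606 in Ova and 0.0913 in IC) and, in Ova, without mouse C (0.0603). Rnf31 shares 2.28% of the exon bases of Irf9 on the same strand. It stood at 0.35 in Ova and 0.21 in IC, opposite in sign to Irf9, and was not called (adjusted p 0.103 and 0.293). The part of shared reads in the Irf9 values was not tested.

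Irf7, the inducible driver of interferon alpha genes and the most abundant member, was higher with iBET in every mouse but not called (chr7:141262706-141266481, minus strand). It was at 510, 472 and 343 CPM in DMSO Ova and at 767, 653 and 474 CPM in iBET Ova. In IC it was at 592, 479 and 354 CPM with DMSO and 765, 519 and 439 CPM with iBET. The groups overlapped, because mouse C with iBET lay below mouse A with DMSO. The log2 fold change was 0.52 in Ova (SE 0.26, 95% interval -0.05 to 1.09, adjusted p 0.156) and 0.28 in IC (SE 0.26, 95% interval -0.29 to 0.84, adjusted p 0.439). Without 1 library the value in IC ran from 0.014, without the mouse A library of iBET IC, to 0.44, without that of mouse C. With mouse as a block it was called in both, at 0.50 (adjusted p 0.00103) and 0.27 (adjusted p 0.0318), and in DESeq2 with the block in Ova (adjusted p 5.79e-05) but not in IC (0.0537). Phrf1, which shares 1.19% of the exon bases of Irf7 on the opposite strand, stood at 0.38 in Ova (adjusted p 0.0556) and 0.08 in IC (adjusted p 0.677).

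The level of Irf7 followed the mouse. Its order was mouse A, then B, then C in 4 of 4 groups, an order that no other member kept in more than 2. In a model with group and mouse, a test chosen after this order was seen, the mouse term was called for Irf7 (adjusted p 0.000401), with mouse A 1.63-fold above mouse C and 1.23-fold above mouse B. The same term was called for 5.55% of all genes and for none of the other 7 members in edgeR, whose adjusted p ran from 0.267 to 0.778 and of which 0 had an unadjusted p under 0.05. Markers of neutrophils, 5 of 6 in the table and 3 tested, also differed between mice and in the opposite order, their sum being 5.65 to 9.66 CPM over the 4 libraries of mouse A, 8.43 to 27.7 in mouse B and 26.5 to 35.1 in mouse C. The 5 markers of T and NK cells, 1 tested, summed to 2.61 to 4.43 CPM in mouse A, 2.52 to 3.30 in mouse B and 1.08 to 2.37 in mouse C. Cd4 made up nearly all of that sum, at 1.08 to 4.43 CPM over the 12 libraries. Cd3e did not exceed 0.194 CPM, Cd3g 0.0767, Cd8a 0.110 and Ncr1 0.0842. The part of either marker set in the Irf7 order was not tested, and the labels give only a letter for each mouse.

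Irf3 and Irf5, which with Irf7 complete the group activated by phosphorylation, were not called in either stimulation. Irf3 was at 7.70, 15.6 and 13.4 CPM in DMSO Ova, 19.5, 18 and 15.6 in iBET Ova, 9.93, 11.9 and 12.7 in DMSO IC and 13.6, 16.5 and 11.6 in iBET IC. Its groups overlapped, with a log2 fold change of 0.44 in Ova (95% interval -0.02 to 0.90, adjusted p 0.132) and 0.28 in IC (-0.17 to 0.73, adjusted p 0.327). The mouse A library of DMSO Ova held 15 counts of Irf3, and without it the value in Ova was 0.23 (adjusted p 0.374). Bcl2l12, which overlaps 2.56% of its exon bases on the opposite strand, was at -0.89 in Ova (adjusted p 0.0573) and -1.59 in IC (adjusted p 0.00273), and whether strand was used in counting is not given in the sources used here.

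Irf5, which drives inflammatory cytokine genes in macrophages, lay between 173 and 250.2 CPM in all 12 libraries. The log2 fold change with iBET was -0.13 in Ova (95% interval -0.40 to 0.13, adjusted p 0.441) and -0.12 in IC (-0.38 to 0.15, adjusted p 0.485), and 2 of 3 mice were lower in each. Of its exon bases, 14.1% overlap Tnpo3 on the opposite strand, which stood at 0.08 in both stimulations and was not called (adjusted p 0.496 and 0.478).

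**Figure D3:**
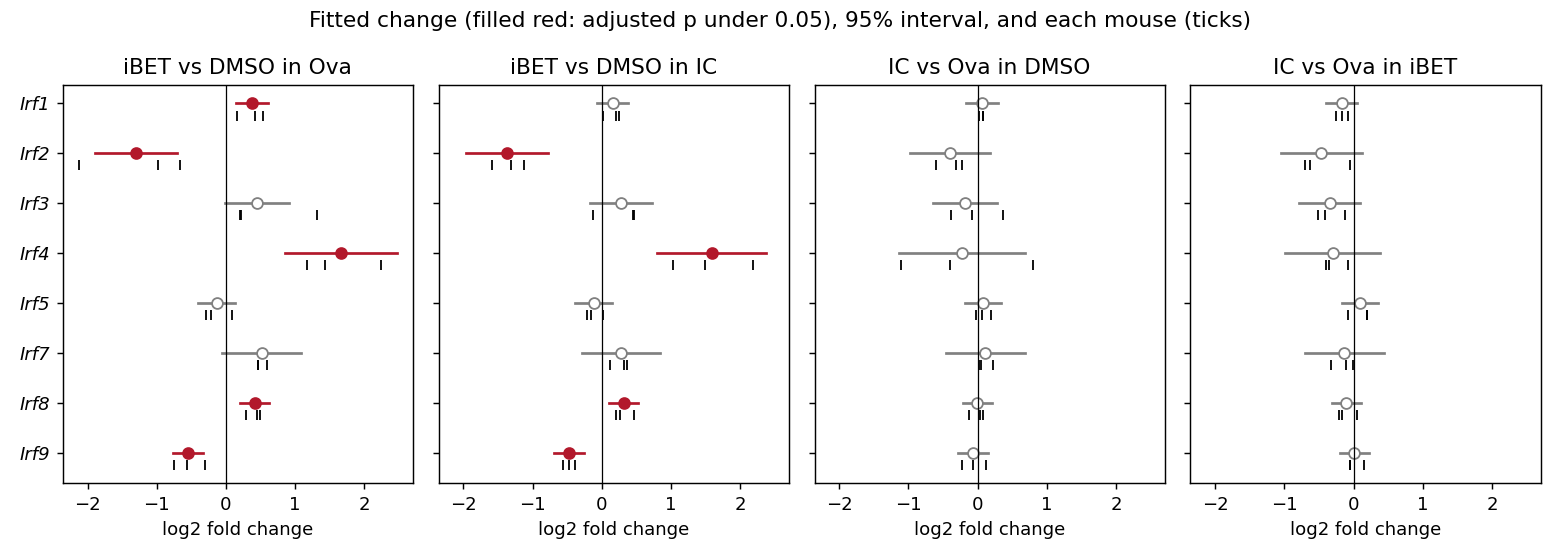
Fitted log2 fold change of each member with its 95% interval in 4 comparisons (filled red where the adjusted p is under 0.05, open grey otherwise), and the difference within each mouse as black ticks below. With iBET, Irf4 lies at 1.66 and 1.59 and Irf2 at -1.30 and -1.37; in both IC comparisons every interval includes 0.

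The balance shifted with iBET for Irf1 against Irf2 and for Irf8 against Irf4, but not clearly for Irf7 against Irf3. These pairs were chosen after the values were seen, so no test result is given for them. The ratio of Irf1 to Irf2 per kb was 0.436 ± 0.145 (SD, n = 3; range 0.273 to 0.551) in DMSO Ova and 1.30 ± 0.117 (1.17 to 1.39) in iBET Ova, and it was 0.573 ± 0.119 (0.436 to 0.654) in DMSO IC and 1.61 ± 0.250 (1.33 to 1.80) in iBET IC. Thus, per kb of exons, Irf2 exceeded Irf1 in every DMSO library and Irf1 exceeded Irf2 in every iBET library. This crossing rests on the scaling by length. In CPM, Irf2 stayed above Irf1 in every library, most narrowly in the mouse B library of iBET IC (35.8 against 34.6 CPM). The ratio of Irf8 to Irf4 ranged from 33.5 to 63.2 in DMSO Ova and 14.3 to 20.1 in iBET Ova, and from 30.7 to 87.4 in DMSO IC and 17.1 to 27.0 in iBET IC. The 63.2, in mouse A, rests on 2 counts of Irf4 and the 87.4, in mouse C, on 7. Irf8 transcripts thus stayed far above those of Irf4 in every library, by a smaller factor with iBET. The ratio of Irf7 to Irf3 overlapped between all groups, at 23.3 to 60.3 across the DMSO libraries and 27.7 to 51.3 across the iBET libraries. The 60.3 is that of the mouse A library of DMSO Ova, with 15 counts of Irf3.

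The comparison of IC with Ova asked whether receptor cross-linking for 4 h alters the same transcripts. In DMSO, 0 of 8 members were called (0 at an unadjusted p under 0.05 in edgeR, and 0 called in DESeq2), against 1.22% of all genes. Irf2 had the largest change, at -0.40 (SE 0.26, 95% interval -0.98 to 0.18, adjusted p 0.666), and was lower with IC in 3 of 3 mice. It was -0.06 without the mouse A library of DMSO Ova, and between -0.47 and -0.27 without 1 whole mouse. The others lay between -0.22 for Irf4 and 0.11 for Irf7, and no member had libraries that did not overlap, against 15.3% of all genes. For Irf8 the change was -0.00 (95% interval -0.21 to 0.21), and for Irf5 it was 0.08 (-0.19 to 0.34).

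With iBET present, IC again called 0 of 8 members (0 at an unadjusted p under 0.05 in edgeR, and 0 called in DESeq2), against 0.349% of all genes. Irf2 was lower with IC in 3 of 3 mice, and its 3 iBET IC libraries, at 35.8 to 44.5 CPM, lay below the 3 iBET Ova libraries, at 46.3 to 62.5 CPM, where 18.9% of all genes did not overlap. The change of Irf2 was -0.47 (95% interval -1.05 to 0.12, adjusted p 0.76), and it was called without mouse A (-0.65, adjusted p 0.0144). Irf3 and Irf4 stood at -0.35 and -0.30, and the remaining 5 members lay between -0.17 for Irf1 and 0.09 for Irf5.

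The interaction, in which the IC response of DMSO-treated cells is taken from that of iBET-treated cells, called 0 of 8 members and 0 of all genes in edgeR (0% of those tested, with 292 genes and 0 members at an unadjusted p under 0.05). Values ran from -0.24 for Irf7 to 0.08 for Irf9. The intervals are wide for the noisier members, from -1.24 to 1.09 for Irf4 and from -0.89 to 0.75 for Irf2, and narrower for Irf8, from -0.39 to 0.19.

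Other genes of the pathway were counted in 5 lists. The interferons themselves, Ifnb1, Ifna1, Ifna2, Ifna4, Ifng, Ifnl2 and Ifnl3, had 0 counts in all 12 libraries, which allows up to 3 counts per library. Genes of the machinery that senses nucleic acids or Toll-like receptor ligands and activates IRFs, 18 of 18 tested, were mostly lower where called, with 2 higher and 6 lower in both stimulations (over all genes 17.1% were higher and 14.2% lower in Ova, and 19% and 15.8% in IC). The list's median was -0.26 in Ova and -0.08 in IC, against 0.02 and -0.00 over all genes.

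Among them Tmem173, which encodes the DNA-sensing adaptor STING, fell from 20.4 ± 3.89 to 7.27 ± 1.34 CPM in Ova (log2 fold change -1.51, adjusted p 9.12e-05, SE 0.19) and by 1.33 in IC (adjusted p 0.000169, SE 0.18). Ticam2, an adaptor of Tlr4, changed by -1.36 (adjusted p 0.000112, SE 0.17) and -1.85 (adjusted p 1.05e-05, SE 0.18). Tank and Azi2, scaffolds of the kinase Tbk1, rose by 0.50 and 0.34 in Ova (adjusted p 0.0124 and 0.0184, SE 0.13 and 0.096) and by 0.36 and 0.26 in IC (adjusted p 0.0437 and 0.0496, SE 0.13 and 0.094). For IC against Ova in DMSO 1 gene of the list was called, the kinase Ikbke (0.83, adjusted p 0.00583, SE 0.12), and in iBET it was at 0.32 (adjusted p 0.549). The difference between the arms, tested by the interaction, was -0.50 for Ikbke (SE 0.18, unadjusted p 0.0139) and was not called after adjustment. Set against DMSO, iBET lowered Ikbke in Ova (-0.63, adjusted p 0.00245, SE 0.13) and in IC (-1.14, adjusted p 2.76e-05, SE 0.12).

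Interferon receptors, their kinases and Stat2 gave, with the interferons, 8 tested genes of 15, the 7 interferons being untested. With iBET 3 rose and 1 fell in Ova, and 2 rose and 0 fell in IC, beside 17.1% of all genes higher and 14.2% lower in Ova and 19% and 15.8% in IC. Stat2, which pairs with Irf9 in ISGF3, moved the opposite way to Irf9, from 65.5 ± 1.27 to 118 ± 4.76 CPM in Ova (0.85, adjusted p 2.24e-05, SE 0.088) and, in IC, from 59.3 ± 5.21 to 104 ± 0.451 CPM (0.82, adjusted p 2.33e-05, SE 0.087). The receptor kinase gene Jak1 rose in both (0.41 and 0.37, adjusted p 0.00251 and 0.00354, SE 0.082 and 0.081), and the interferon gamma receptor gene Ifngr2 fell in Ova (-0.54, adjusted p 0.027, SE 0.17) and stood at -0.40 in IC (adjusted p 0.0768). The list's median was 0.22 in Ova and 0.20 in IC, and IC called 0 of the 8 in either arm.

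Partners and co-repressors gave 14 tested genes of 16, with 3 higher and 2 lower in each stimulation and a median of -0.00 in Ova and -0.18 in IC. Of all genes 17.1% were higher and 14.2% lower in Ova, and 19% and 15.8% in IC, so these counts lay near the background. Spi1, which encodes PU.1, the partner of Irf4 and Irf8 on composite elements, fell from 192 ± 24.7 to 66.0 ± 3.26 CPM in Ova (-1.54, adjusted p 2.34e-06, SE 0.12) and, in IC, from 241 ± 10.8 to 71.7 ± 7.81 CPM (-1.75, adjusted p 7.61e-07, SE 0.12). Irf2bpl, a relative of the Irf2 co-repressors, fell with Irf2 (-0.59 and -0.75, adjusted p 0.0106 and 0.00212, SE 0.15 each). Cebpa and Jun rose, by 0.86 and 0.40 in Ova (adjusted p 0.00595 and 0.0127, SE 0.20 and 0.10) and by 0.85 and 0.61 in IC (adjusted p 0.00507 and 0.000707, SE 0.20 and 0.10). With IC in DMSO 1 gene was called, Cebpb (0.71, adjusted p 0.0279, SE 0.14), and with IC in iBET 0 were.

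Known IRF target genes, 33 tested of 40, were mostly lower where called. With iBET in Ova 10 were lower and 1 higher (median -0.51), where 14.2% of all genes were lower and 17.1% higher, and in IC 16 were lower and 0 higher (median -0.64), where 15.8% were lower and 19% higher. Among called genes with a mean count of at least 50, Ifit3 and Ifit1, antiviral genes with ISRE promoters, had the largest falls, Ifit3 from 101 ± 39.5 to 18.5 ± 5.02 CPM in Ova (-2.42, adjusted p 0.00308, SE 0.48) and, in IC, from 105 ± 65.3 to 15.5 ± 7.91 CPM (-2.73, adjusted p 0.00125, SE 0.48). Ifit1 went from 66.7 ± 15.5 to 22.3 ± 3.83 CPM in Ova (-1.60, adjusted p 4.55e-05, SE 0.18) and, in IC, from 75.8 ± 5.07 to 24.2 ± 4.03 CPM (-1.65, adjusted p 2.88e-05, SE 0.18). The gene called higher in Ova was Ifi35 (0.33, adjusted p 0.0405, SE 0.11), and IC called 0 of the 33 in either arm.

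**Figure D4:**
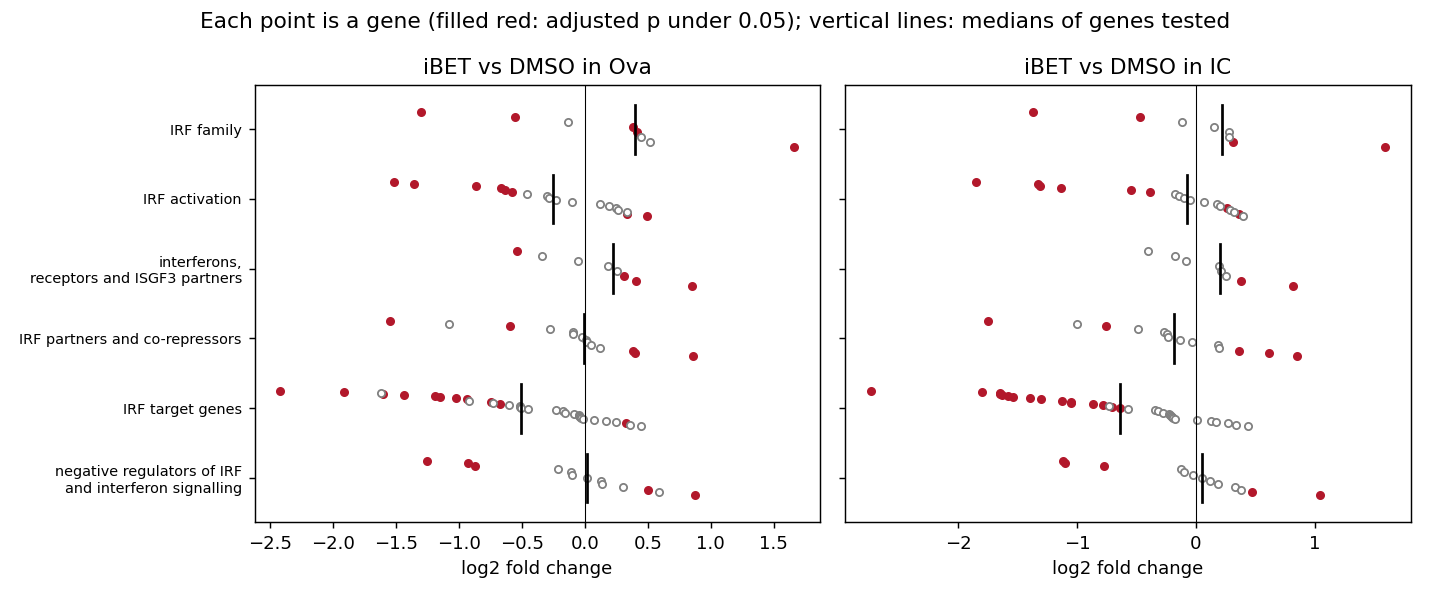
Log2 fold change with iBET in Ova (left) and IC (right) of every tested gene of the family and of the 5 lists, red where the adjusted p is under 0.05 and open otherwise, with each row's median as a vertical line. The target genes lie mostly below 0 with medians of -0.51 and -0.64, while the 8 family members spread to both sides.

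Negative regulators of IRF and interferon signalling, 13 tested of 14, gave 2 higher and 3 lower in each stimulation, with medians of 0.02 and 0.05. These counts too lay near the shares over all genes, 17.1% higher and 14.2% lower in Ova and 19% and 15.8% in IC. Peli1, a ubiquitin ligase, rose from 59.2 ± 12.1 to 111 ± 3.81 CPM in Ova (0.88, adjusted p 0.00026, SE 0.13) and by 1.04 in IC (adjusted p 5.98e-05, SE 0.13). Nlrc3, an inhibitor of STING signalling, fell by 1.25 and 1.10 (adjusted p 0.00106 and 0.00141, SE 0.22 and 0.21). Usp18, which restrains the interferon alpha receptor, fell by 0.93 in Ova (adjusted p 0.00378, SE 0.20) and by 0.77 in IC (adjusted p 0.00892, SE 0.20), and the phosphatase gene Ptpn6 fell by 0.87 and 1.12 (adjusted p 0.033 and 0.0088, SE 0.27 and 0.28). Ptpn2 was at 0.50 in Ova (adjusted p 0.0369, SE 0.17) and 0.19 in IC (adjusted p 0.391), and Pias1 at 0.13 in Ova (adjusted p 0.475) and 0.47 in IC (adjusted p 0.0134, SE 0.13). For IC against Ova 1 gene was called in each arm, Socs3, at 2.64 in DMSO (adjusted p 0.00827, SE 0.42) and 2.43 in iBET (adjusted p 0.0118, SE 0.37).

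Over the 12 libraries, which include the 4 groups and so carry the iBET difference, the correlation of log2 CPM was -0.90 between Irf8 and Irf9, 0.83 between Irf4 and Irf8, 0.80 between Irf2 and Irf9 and -0.85 between Irf1 and Irf9. After each library was set against its group mean, the same pairs gave -0.36, -0.06, -0.34 and -0.50. The strongest pairs within groups were then Irf2 with Irf3 at -0.86, from -0.68 before, and Irf4 with Irf9 at 0.79, from -0.76. These values include the mouse A library of DMSO Ova, which held 15 counts of Irf3 and 2 of Irf4. They were not computed without that library. Among 9427 other genes with a mean count of at least 50, the patterns most like Irf2 were those of Ywhah (r = 0.99) and Stag2 (0.98). For Irf8 they were Rab11fip3 (0.98) and Sgcb (0.97), for Irf9 Slc25a24 (0.98) and Bak1 (0.97), and for Irf1 Npm1 (0.90) and Kmt2c (0.90). For Irf7 they were Cfb (0.93) and Itgb2 (0.92), for Irf5 Nat6 (0.91) and Sirpb1b (0.91), and for Irf3 Dtd2 (0.94) and Igf1r (0.92). For Irf4, compared with 9428 genes, they were Ipp (0.97) and Nuak2 (0.97).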

How the data were processed

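The authors deposited 2 tables for the 12 libraries. The first holds counts per gene symbol, made per the labels and the study's methods from total RNA (SMARTer pico kit) with Trim Galore, HISAT2 on mm10 and featureCounts. The annotation, the strand setting and the handling of multiply aligned reads are not given in the sources used here. The other deposited table is a normalized signal, which equals the counts over a constant for each library, and was used as an alternative only.

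Counts were fitted in edgeR 4.0.16 (R 4.3.3) with filterByExpr (minimum count 10), TMM scaling and 1 robust quasi-likelihood model with 1 term per group over the 12 libraries. Tests were two-sided, adjusted by Benjamini-Hochberg over 11468 genes and called at 0.05. SE is the absolute log2 fold change over the square root of F. Differences within a mouse used log2 CPM (prior count 2). Lengths and positions came from GENCODE vM21 (GRCm38/mm10) and promoters from RefSeq, matched by symbol for 8 of 8 members. The scripts were tested on simulated data.

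The members and lists were chosen with earlier results of these data known. All members were named, and from each list at most the 2 largest rises and 2 largest falls per comparison among called genes with a mean count of at least 50, the interferons whatever their values, and the 2 genes most like each member. Some genes of these lists are not reported here and were left out of their counts.

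Pairing by mouse comes from the labels. Across genes, deviations from group means correlated, in 18 same-mouse pairs of libraries, at a median of 0.263 (-0.0725 to 0.542), against -0.134 (-0.499 to 0.271) in 36 pairs from different mice. No 2 libraries held identical counts. A count of 0 allows 3, and such limits cover counting error only.

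Alternatives were DESeq2 1.42.0 or its size factors within edgeR, a filter of 10 counts in every library or none, a mouse block in either tool, the compared groups alone, 1 surrogate variable from sva 3.50.0, removal of Rn45s, limma voom 3.58.1 with sample weights, limma on the authors' normalized signal (pseudocount 1), and omission of each library and each mouse.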

Additional observations from a re-analysis of the deposited data

Results flagged for a closer look

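The differences of Irf1 and Irf7 with IC had opposite signs in the 2 arms, in 3 of 3 mice each, but neither gene was called in either arm. Some differences within a mouse were small. For Irf1 in DMSO mouse C gave 0.014. For Irf7 mouse A gave -0.0036 in iBET, and mice B and C gave 0.020 and 0.042 in DMSO. For Irf1 the log2 fold change of IC against Ova was 0.057 in DMSO and -0.17 in iBET. For Irf7 it was 0.11 in DMSO and -0.14 in iBET. The difference itself was tested by the interaction and was not called for either gene in edgeR (unadjusted p 0.151 for Irf1 and 0.521 for Irf7, adjusted p 1.00 for both). For Irf1 the direction in each arm was the same in all 15 fits without 1 library or 1 mouse, whereas for Irf7 it reversed in 2 of the 12 fits without 1 library in each arm.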

How the results depend on the processing

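The count of members called with iBET was 5 in Ova and 4 in IC, 4 to 6 and 3 to 5 over the settings that kept all libraries. Over fits without 1 library or 1 mouse it ran from 0 to 5 in Ova and from 1 to 4 in IC, lowest without mouse B (0 and 1; all genes 1310 and 1769 in place of 3593 and 3987), and 2 in each without mouse C. For IC against Ova in iBET it ran from 0 to 1. With mouse as a replicate block it was 6 in Ova and 5 in IC in edgeR, and 6 and 4 in DESeq2, and the block changed no call of a member other than that of Irf7. Irf4 could not be tested with at least 10 counts in every library, which left 4 and 3 members called. The call of Irf8 in IC was lost in limma on the normalized signal (adjusted p 0.0565). Irf4 rests on the fewest counts of the 8.

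Changes of direction were confined to IC comparisons and interactions that were not called. Irf8 for IC in DMSO was 0.014 in DESeq2, 0.0013 without a filter, 0.0022 with the strict filter, 0.0056 in DESeq2 with the block, 0.032 with 1 surrogate variable and 0.035 with voom. The interaction of Irf4 was 0.11 with the block in edgeR, 0.12 with it in DESeq2 and 0.45 with voom, and Irf9 for IC in iBET was -0.00043 with 1 surrogate variable. Without 1 library or mouse, IC in DMSO ran from -0.36 to 0.013 for Irf3, -0.89 to 0.28 for Irf4, -0.076 to 0.28 for Irf7, -0.056 to 0.056 for Irf8 and -0.14 to 0.021 for Irf9. IC in iBET ran from -0.0056 to 0.23 for Irf5, -0.40 to 0.030 for Irf7 and -0.053 to 0.080 for Irf9. The interaction ran from -0.40 to 0.17 for Irf2, -0.48 to 0.022 for Irf3, -0.67 to 0.69 for Irf4, -0.083 to 0.15 for Irf5 and -0.075 to 0.21 for Irf9. The cause was not tested.

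Genes called in all for IC in DMSO numbered 140, and 270 in DESeq2, 315 with the block in edgeR and 427 in DESeq2, 5 with the compared groups alone, 266 with voom and 77 with limma on the normalized signal. In iBET they numbered 40, and 103, 85, 176, 99 and 243 under the first 5 of these. The interaction called 0 genes, 4 in DESeq2 and 6 there with the block. Without 1 library or mouse these counts ran from 0 to 159, 0 to 305 and 0 to 1. With iBET, list counts ran over all settings from 4 to 14 (Ova) and 9 to 19 (IC) for target genes lower, and from 3 to 8 and 4 to 6 for activation genes lower.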
